A study of Mus musculus with 8 samples.

Results

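A set of 10 genes that many cells switch on within minutes of a stimulus or of damage were followed through every class of thymic stromal cell: the immediate early genes Fos, Fosb, Jun, Junb, Egr1, Atf3, Nr4a1 and Ier3, and the inducible heat shock genes Hspa1a and Hspa1b. They were taken by name, as 10 of the 55487 gene identifiers in the count table of the mRNA libraries, and all 10 were found and passed every filter on low counts. The genes were selected on their levels across cell classes and ages in earlier results of these data, so their own values are given as a description and carry no test. The cells came from thymi of C57BL/6 mice aged 1 week or 16 weeks, with no transgene, deletion or drug named in the labels for either group. The tissue was digested with Liberase and DNaseI at 37 °C, depleted of CD45+ cells, stained and sorted into CD45-Ter119-EpCAM1+ and EpCAM1- cells that were mixed at a set ratio, so the sizes of the classes follow the sort. Cells of several thymi of an age were pooled in a tube and loaded on 2 wells of a droplet device. The 2 libraries of an age are therefore wells of 1 pool, age cannot be told apart from preparation, and both wells are printed in place of a test. The droplet method, CITE-seq, counts the mRNA of each cell as unique molecular identifiers (UMIs) together with DNA tags carried by antibodies.

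Immediate early genes are transcribed from standing signalling pathways without new protein synthesis. Fos and Jun family proteins pair into the transcription factor AP-1, Egr1 is a zinc finger factor downstream of MAP kinases, Atf3 is a stress-induced partner of the same leucine zipper class, Nr4a1 is an orphan nuclear receptor that lymphoid and endothelial cells induce on stimulation, and Ier3 is a small survival-related protein. Hspa1a and Hspa1b encode the inducible cytosolic chaperone HSP70, which heat shock factor switches on when proteins unfold. Enzymatic digestion of tissue is itself a known inducer of both groups, so levels after digestion need not be levels in the tissue, and no undigested sample was analysed here.

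The starts of the heat shock pair and of a member of each AP-1 family show how alike and how different the members' promoters are. The 250 bases before the start of each gene (RefSeq, GRCm38.p6, 5′ to 3′ on the gene's strand) are printed with the motifs found in capitals. The windows lie at chr17:34972157-34972406 (minus strand, Hspa1a), chr17:34959239-34959488 (minus, Hspa1b), chr4:95052223-95052472 (minus, Jun) and chr12:85473640-85473889 (plus, Fos).
Hspa1a: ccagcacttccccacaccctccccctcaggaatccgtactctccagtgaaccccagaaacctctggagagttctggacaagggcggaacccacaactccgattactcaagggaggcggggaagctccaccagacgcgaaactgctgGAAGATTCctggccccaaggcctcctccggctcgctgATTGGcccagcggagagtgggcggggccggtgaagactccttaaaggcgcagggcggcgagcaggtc
Hspa1b: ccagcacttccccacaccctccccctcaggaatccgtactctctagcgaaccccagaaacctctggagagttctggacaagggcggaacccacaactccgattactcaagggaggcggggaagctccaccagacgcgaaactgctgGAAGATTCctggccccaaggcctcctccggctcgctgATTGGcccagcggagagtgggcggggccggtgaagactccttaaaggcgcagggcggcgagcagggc
Jun: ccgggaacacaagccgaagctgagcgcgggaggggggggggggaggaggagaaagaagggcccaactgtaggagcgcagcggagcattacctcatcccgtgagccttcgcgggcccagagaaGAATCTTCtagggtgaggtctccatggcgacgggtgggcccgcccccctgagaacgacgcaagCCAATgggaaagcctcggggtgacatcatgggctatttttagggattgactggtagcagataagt
Fos: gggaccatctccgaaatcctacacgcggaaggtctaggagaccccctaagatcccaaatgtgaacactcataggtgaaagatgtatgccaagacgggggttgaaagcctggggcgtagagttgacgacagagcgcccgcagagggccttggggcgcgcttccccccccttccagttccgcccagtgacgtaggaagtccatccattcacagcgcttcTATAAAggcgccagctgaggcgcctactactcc

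The Hspa1a and Hspa1b windows were identical at 247 of 250 positions, or 98.8%. Both hold GAANNTTC, the paired core of a heat shock element, beginning 104 bases before the start, and CCAAT on the reverse strand 67 bases before it. The Jun window also holds GAANNTTC, 128 bases before the start, and CCAAT at 65 bases. The Fos window holds TATAAA at 33 bases. The Egr1 window was not used. Searched on both strands, GAANNTTC occurred in 3 of the 9 member windows used and in 6.69% of 32851 windows of all genes, CCAAT in 5 members and 33.8% of windows, and TATAAA in 1 member and 12.4% of windows. A longer heat shock element, the same letters followed after 2 bases by GAA, was in none of the 9 (0.466% of windows). The AP-1 letters TGANTCA (6.75%) and the cyclic AMP element TGACGTCA (1.55%) were in none of the 9. A match of letters is a description and not a shown binding site.

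The likeness of the transcripts of the heat shock pair was not measured (Hspa1a at chr17:34969190-34972156 and Hspa1b at chr17:34956436-34959238, both minus strand, GRCm38). How reads that match both were split between them cannot be seen in the counts, so the pair is described by its sum wherever possible. Hspa1a held 106295 and Hspa1b 116999 UMIs in the 4 libraries. The split differed between classes: at 1 week Hspa1a and Hspa1b had means of 4.22 and 2.46 per 10000 in mural cells but 0.970 and 1.33 in cells led by thymocyte genes, and at 16 weeks 26.0 and 21.4 in mural cells but 9.04 and 12.9 in intertypical epithelial cells. The RNA of Jun, Junb, Hspa1a and Atf3 overlaps annotated genes on the other strand, and those members rest on the strand setting of the counting, for which the methods name no change from the default.

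The 4 libraries held 1430 to 4738 cells, 21281389 to 45480790 UMIs and median depths of 6668.5 to 8690.5 UMIs per cell, 9953 cells in all, of which 253 predicted doublets were set aside. Among them 15 barcodes occurred in more than 1 library. Classes were found by clustering without the 10 genes or the other stress genes and were named from cell type markers. They were 2253 intertypical thymic epithelial cells (TEC), 1611 cortical TEC (cTEC), 1150 mature medullary TEC (mTEC), 369 proliferating TEC, 124 tuft-like mTEC, 2171 fibroblasts, 398 endothelial, 319 mural and 100 mesothelial cells. Unnamed were 628 TEC led by Scn1a and Fmod, 314 shallow epithelial cells in which about 27.8% and 27.5% of UMIs were mitochondrial, 201 cells led by thymocyte genes and 62 led by Krtdap and other cornified epithelium genes. The 12 thymocyte markers and the 5 red cell markers each summed to at most 3.02 UMIs per 10000 in every other class.

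The immediate early genes had their highest class means in mural cells and fibroblasts at both ages, although endothelial cells overlapped fibroblasts at 16 weeks, and were lowest in mature mTEC at 1 week. Levels are UMIs of the gene per 10000 UMIs summed over all cells of a class in a well. The 8 genes together reached 124 and 156 per 10000 in mural cells and 144 and 134 in fibroblasts of the 2 wells at 1 week. These classes overlapped each other and stood above all others. cTEC followed with 93.8 and 89.9, intertypical TEC with 87.7 and 91.6, mesothelial cells with 88.2 and 81.4, proliferating TEC with 78.9 and 86.7 and endothelial cells with 73.0 and 79.7, and neighbours in this run overlapped. Mature mTEC held 37.5 and 35.5, below every other class and 3.83-fold below the mural mean.

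At 16 weeks the sum was 113 and 119 per 10000 in mural cells, 107 and 111 in fibroblasts, 113 and 96.1 in endothelial cells and 102.02 and 105 in the Scn1a- and Fmod-led TEC. Tuft-like mTEC (69.0 and 77.7) overlapped cTEC (69.2 and 62.9). Intertypical TEC (45.1 and 47.4) and mature mTEC (42.1 and 41.3) lay below them without overlapping, and proliferating TEC (31.1 and 35.7) lay lower still. Shallow epithelial cells held 29.5 and 31.9. The 16-week mature mTEC pool counted 43190 UMIs of the 8 genes, an exact 95% Poisson interval of 41.2 to 42.0 per 10000, about as wide as the gap between its wells. Intervals cover counting error only.

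The heat shock pair was low in every class at 1 week. Its sum ran from 1.82 and 1.04 per 10000 in endothelial cells to 6.38 and 7.13 in intertypical TEC, with 4.51 and 8.85 in mural cells, 4.35 and 4.31 in mature mTEC, 3.27 and 3.21 in cTEC and 2.49 and 3.44 in fibroblasts. At 16 weeks the same sum was 51.1 and 50.3 in fibroblasts, 47.8 and 47.2 in mural cells and 39.8 and 29.7 in endothelial cells. Every TEC class lay below these, between 13.7 in a well of tuft-like mTEC and 23.7 in the Krtdap-led cells. Endothelial cells, the lowest class at 1 week, were thus the third highest at 16 weeks, and the plot of class levels shows that no 1-week well reached any 16-week well.

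**Figure D1:**
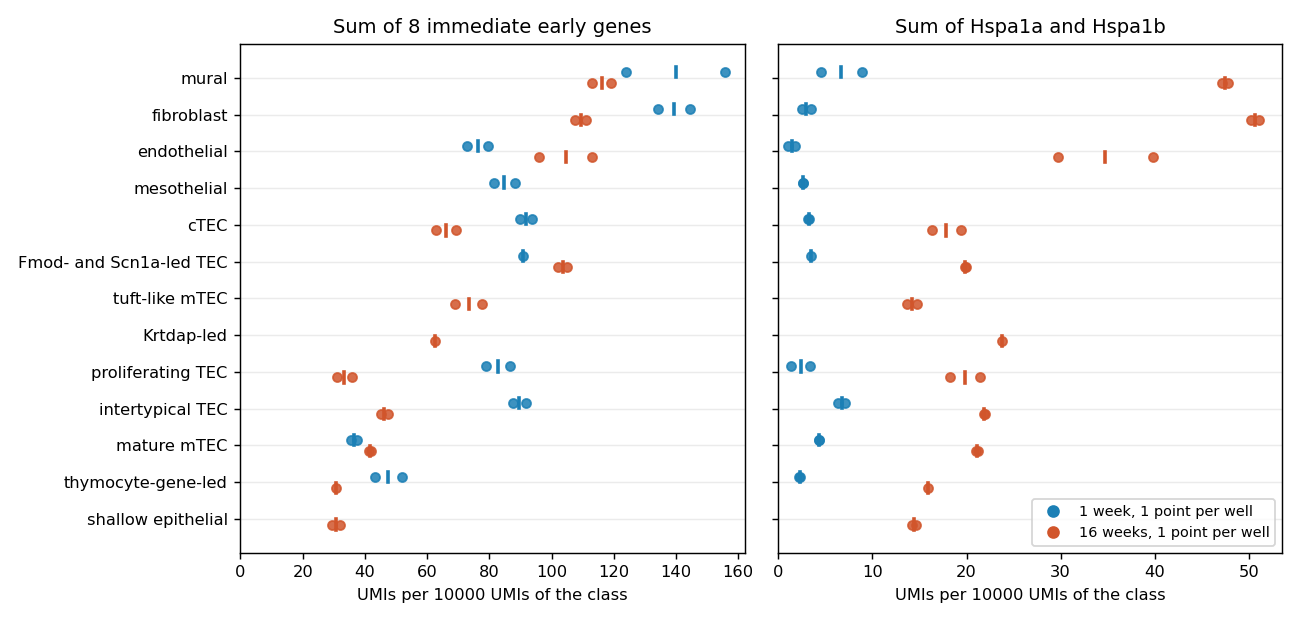
Levels of the 8 immediate early genes (left) and of Hspa1a + Hspa1b (right), in UMIs per 10000, by cell class and age; each point is a well and each bar the mean of the wells of that age. Mural cells and fibroblasts have the highest bars of the left panel at both ages, with endothelial points among those of fibroblasts at 16 weeks, while in the right panel every 16-week point lies above every 1-week point.

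Fos (chr12:85473890-85477273, plus strand) had the widest range of class means among the AP-1 genes at 1 week. It stood at 33.7 and 44.0 per 10000 in mural cells and 36.4 and 34.6 in fibroblasts at 1 week, against 5.85 and 4.29 in mature mTEC, a 7.66-fold range. At 16 weeks mural cells held 37.1 and 38.3, above fibroblasts at 28.8 and 27.7 without overlap. Intertypical TEC (6.61 and 6.76) and mature mTEC (7.01 and 6.27) could then not be ordered. Fosb (chr7:19302696-19310051, minus), a close relative of Fos, was led at 1 week by fibroblasts (15.2 and 14.4) and mural cells (14.4 and 15.2). At 16 weeks the Scn1a- and Fmod-led TEC had the highest Fosb, 9.45 and 10.4, above both.

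Jun (chr4:95049034-95052222, minus), the main partner of Fos, was 40.3 and 36.7 per 10000 in fibroblasts at 1 week and 9.08 and 8.85 in mature mTEC. At 16 weeks fibroblasts (34.8 and 38.1), the Scn1a- and Fmod-led TEC (34.6 and 35.2), endothelial cells (34.8 and 31.0) and mural cells (33.8 and 31.8) formed a group in which neighbours overlapped. Junb (chr8:84974484-84978718, minus), which tempers Jun, was shared by mural cells (20.3 and 26.0), fibroblasts (23.6 and 21.5) and cTEC (20.4 and 20.7) at 1 week and was lowest in mesothelial cells (7.80 and 7.73). It was the only AP-1 member for which mature mTEC were not the lowest class at 1 week.

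Egr1 was highest in fibroblasts at both ages, 19.2 and 17.2 per 10000 at 1 week and 14.3 and 13.9 at 16 weeks, and endothelial cells overlapped them only at 16 weeks (14.0 and 12.1). Atf3 (chr1:191170296-191218039, minus) was highest in mesothelial cells at 1 week, 13.0 and 9.59, overlapping mural cells at 8.38 and 12.6. In proliferating TEC at 16 weeks Atf3 was at 1.10 and 0.699, the lowest mean of 12 classes, overlapping shallow epithelial cells. Nr4a1 (chr15:101254269-101274795, plus) had the widest range of all members, with the vessel classes highest: 3.13 and 4.8 in mural cells and 2.31 and 2.34 in endothelial cells at 1 week, against 0.312 and 0.368 in mature mTEC. At 16 weeks mural cells (1.56 and 2.10) and endothelial cells (1.61 and 1.27) overlapped, and intertypical TEC held 0.101 and 0.123. Within cTEC at 1 week, Nr4a1 was 1.52 and 1.55 in the Sptssb-led cluster against 0.339 and 0.282 in the Isg20-led cluster, and Nr4a1 is among the leading genes of the former, although it was left out of the clustering.

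Ier3 (chr17:35821684-35822923, plus) followed a different order. cTEC were highest at 1 week with 5.06 and 4.76 per 10000 and overlapped mesothelial cells (5.27 and 2.98), while fibroblasts held only 1.21 and 1.87. At 16 weeks endothelial cells led with 4.77 and 4.20, above the Scn1a- and Fmod-led TEC (2.99 and 3.04) and cTEC (2.90 and 2.03). Proliferating TEC had 0.187 and 0.347. Over the 41 units the log2 level of Ier3 had a Pearson r of 0.81 with Atf3 but 0.38 with Jun, whereas Fos had 0.91 with Egr1. These units share libraries and depth, and the values are a description. Against the heat shock pair the immediate early members had r from 0.30 (Jun with Hspa1a) down to -0.50 (Ier3 with Hspa1b).

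Between the ages both heat shock genes were higher at 16 weeks in the 7 classes with at least 20 cells in all 4 libraries. Most immediate early genes were lower in most of these classes, but not in endothelial cells or mature mTEC. Hspa1a and Hspa1b were each higher in both 16-week wells than in both 1-week wells in 7 of 7 classes. Nr4a1 was lower in 7 of 7, Atf3 and Junb in 6, Fosb, Egr1 and Ier3 in 5, Fos in 4 and Jun in 3, by the same rule. Wells that do not overlap are common with 2 wells per age: without regard to size, 32.8% of all genes tested were higher and 27.7% lower in cTEC, 38.5% and 28% in intertypical TEC, 30.9% and 38.5% in proliferating TEC, 26.5% and 20.9% in mature mTEC, 35.8% and 34.6% in fibroblasts, 22.5% and 36.4% in mural cells and 23.8% and 33.1% in endothelial cells. The differences of the sums are on the log2 scale, of the 16-week mean over the 1-week mean, with an SD from the spread of the wells. The median mitochondrial share of a cell was 3.29% and 3.76% in the 1-week libraries and 4.7% and 5.71% in the 16-week libraries. Within classes it was higher at 16 weeks without overlap in proliferating TEC (2.68% and 2.82% against 8.78% and 11.7%), lower in endothelial cells (3.49% and 4.39% against 2.99% and 3.15%), and overlapping in the other 5 classes, and its part in the age differences was not tested. The 7 class medians over all genes tested lay between -0.11 and 0.08.

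**Figure D2:**
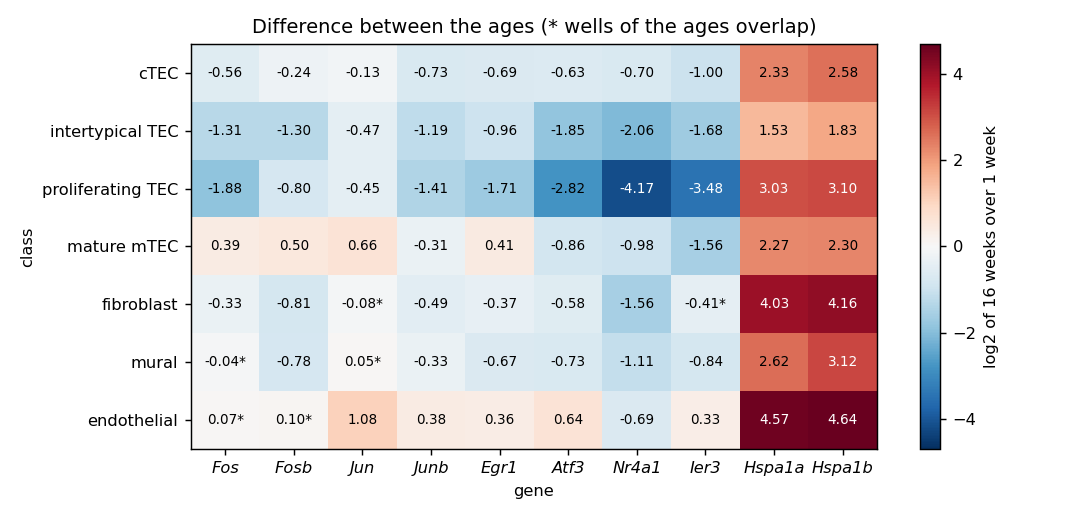
Log2 of the mean level at 16 weeks over that at 1 week for each of the 10 genes (columns) in the 7 cell classes (rows), red higher and blue lower at 16 weeks; an asterisk marks wells of the ages that overlap. Both heat shock columns are red throughout and the Nr4a1 column is blue throughout, while endothelial cells and mature mTEC hold most of the red cells among the immediate early genes.

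The heat shock sum was higher by 4.60 ± 0.64 (24.3-fold) in endothelial cells, 4.10 ± 0.33 (17.1-fold) in fibroblasts, 3.07 ± 0.94 (8.38-fold) in proliferating TEC, 2.83 ± 0.69 (7.10-fold) in mural cells, 2.46 ± 0.18 (5.52-fold) in cTEC, 2.29 ± 0.01 (4.88-fold) in mature mTEC and 1.70 ± 0.11 (3.24-fold) in intertypical TEC (SD, 2 wells per age). The 1-week wells of proliferating TEC stood apart, at 1.36 and 3.38 per 10000, and the difference was 3.87 without 1-week well 2. In the Utf1-led cluster, the single cluster of that class with enough cells at both ages, the heat shock sum was 1.86 and 8.78 against 18.5 and 21.8, a difference of 1.92. At least a 2-fold difference with no overlap of the wells was called in both genes in each of the 7 classes. With the stress genes kept among the clustering genes neither was called in intertypical TEC, where the sum then differed by 0.74, while thinned cells gave 2.47. The share of all tested genes called higher by this rule was 5.04% in endothelial cells, 8.75% in fibroblasts, 5.92% in mural cells, 7.13% in cTEC, 8.25% in mature mTEC, 10.9% in intertypical TEC and 10.7% in proliferating TEC. The 7 fibroblast markers gave a level in other classes too. In the Scn1a- and Fmod-led TEC at 16 weeks they stood at 8.40% and 9.09% of the fibroblast level, a share at which the fibroblast heat shock sum would give 4.29 and 4.57 per 10000, against 19.8 and 19.9 measured. In cTEC, intertypical and mature mTEC at 16 weeks these stood at 2.25% to 4.51% of the fibroblast level, a share at which the fibroblast heat shock sum would give 1.13 to 2.27 per 10000, against the 16.3 to 22.0 measured. Whether these marker UMIs came from fibroblast RNA was not tested.

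Endothelial cells and mature mTEC went against the other classes in several immediate early genes. In endothelial cells Jun was 13.7 and 17.5 per 10000 at 1 week and 34.8 and 31.0 at 16 weeks, a difference of 1.08 and the single immediate early call there, though just under 2-fold when doublets were kept, and 3 of 10 members were called higher and 0 lower (5.58% of all genes lower). Atf3 was 4.94 and 3.49 against 6.88 and 6.28, Egr1 10.2 and 10.1 against 14.0 and 12.1, and Junb 13.9 and 14.1 against 19.4 and 17.03. Nr4a1 was the exception at 2.31 and 2.34 against 1.61 and 1.27, and Fos and Fosb overlapped. The sum of the 8 differed by 0.45 ± 0.19. The 1-week endothelial cells lay mostly in a Gpihbp1-led cluster and the 16-week cells in a Ctla2a-led cluster, so age and the make-up of the class cannot be told apart. The same holds for mural cells, which changed from an Rgs5-led to a Mustn1-led cluster.

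In mature mTEC the sum differed by only 0.19 ± 0.06 (0.095 as a mean over cells and 0.083 after thinning), with its members split. Jun was 9.08 and 8.85 at 1 week and 14.1 and 14.2 at 16 weeks, and Fos, Fosb and Egr1 were higher by 0.39, 0.50 and 0.41. Atf3 was lower, 3.33 and 3.37 against 1.88 and 1.81, as were Ier3 (1.77 and 0.984 against 0.409 and 0.526), Nr4a1 (-0.98) and Junb (-0.31). Of the 10 members 2 were called higher and 1, Ier3, lower (-1.56), where 2.88% of all genes were called lower, and Nr4a1 was called lower as well in 4 of 6 alternatives. The split was also present inside the Lypd8-led cluster of this class, which had cells in all wells: Jun was 10.4 and 9.27 against 15.8 and 15.5, and Atf3 3.46 and 4.36 against 2.39 and 2.26.

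cTEC, fibroblasts and mural cells had lower immediate early sums at 16 weeks. In cTEC the sum differed by -0.48 ± 0.11, and the largest log2 differences of its members were those of Ier3 (-0.996), Junb (20.4 and 20.7 against 12.3 and 12.5, -0.73), Nr4a1 (-0.70) and Egr1 (10.4 and 10.5 against 6.65 and 6.25, -0.69), while Jun differed by -0.13. None of the 8 was called, where 7.19% of all genes were called lower, but Ier3 was called in 4 of 6 alternatives. The 16-week cTEC were 33 and 108 cells, and the difference depended on how cells were weighted: when each cell counted equally the sum was 85.6 and 84.5 per 10000 at 1 week and 99.4 and 69.5 at 16 weeks, which overlap. In the deep Isg20-led cluster the sum was 91.3 and 85.0 against 49.3 in 16-week well 2, and in the shallower Hbb-bs-led cluster 97.1 and 95.9 against 81.5. In fibroblasts the sum differed by -0.35 ± 0.08 (-0.33 without the Csmd1-led cluster, whose 10 leading genes hold the mural marker Pdgfrb and no fibroblast marker), with Fosb at 15.2 and 14.4 against 8.06 and 8.86, and Jun and Ier3 overlapping. Nr4a1 alone was called lower there (1.55 and 1.81 against 0.537 and 0.604, -1.56; 7.5% of all genes). In mural cells, 26 and 64 at 16 weeks, the sum differed by -0.27 ± 0.24, and Nr4a1 (-1.11) was the single lower call, where 11.2% of all genes were called, with Fos and Jun overlapping. Fosb was called too after thinning, and Fosb and Ier3 as a mean over cells.

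Intertypical and proliferating TEC had the most members called lower, 6 of 10 each, where 5.86% and 12.9% of all genes were called. In intertypical TEC the count was 1, Atf3, with doublets kept, 3 after thinning and 4 as a mean over cells. In the summed intertypical cells Fos was 15.6 and 17.5 at 1 week and 6.61 and 6.76 at 16 weeks, Atf3 6.29 and 5.59 against 1.45 and 1.84, and the sum of the 8 differed by -0.95 ± 0.07. That difference was -0.51 as a mean over cells and -0.50 after thinning. The make-up of both classes changed with age. Most 1-week intertypical cells lay in a Pth-led cluster whose 10 leading genes held the fibroblast genes Col1a1 and Col3a1 beside Ccl21a, so this class is better read by cluster. In the Gm8113-led cluster, with cells in all wells, the sum was 106 and 112 against 61.5 and 59.4, Atf3 10.6 and 8.40 against 2.20 and 2.17, and the heat shock sum 9.35 and 7.44 against 28.0 and 27.7. In the Pth-led cluster the sum was 84.5 and 86.1 against 63.5 in the single 16-week well that held enough cells. For proliferating TEC the sums of the ages overlapped in the Utf1-led cluster present at both, 27.8 and 46.0 at 1 week and 26.9 and 36.3 at 16 weeks. Nr4a1 (-1.18), Ier3 (-1.15) and Atf3 (-0.90) were lower there without overlap, as were 19.3% of all genes tested in that cluster, and the other 5 overlapped. The 1-week cells were mostly of a Cenpf-led cluster with 93.5 and 99.0.

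Clusters of a class also differed from each other. At 16 weeks the 3 highest clusters in immediate early genes were the Mustn1-led mural cluster (122 and 126 per 10000), a Gm10115-led fibroblast cluster seen in a single well (123) and the Pi16-led fibroblasts (121 and 125). The lowest were the shallow epithelial cells (29.5 and 31.9), the thymocyte-gene-led cells (30.8), the Utf1-led proliferating TEC (26.9 and 36.3) and the Chil3-led intertypical TEC (26.6 and 37.4), which overlapped each other. The heat shock pair split the adult fibroblasts. It was 60.4 and 56.9 in the Sod3-led cluster and 63.5 and 57.7 in the Csmd1-led cluster (median 3317.5 UMIs per cell), but 19.9 and 19.5 in the Pi16-led cluster and 13.4 in the Gm10115-led cluster, which also carries Pi16 and Dpp4. Pi16-led fibroblasts thus had the higher Fos (33.7 and 33.6 against 28.9 and 27.5 in the Sod3-led cluster) with about a TEC level of HSP70 mRNA. The 10 leading genes of the Csmd1-led cluster hold the mural marker Pdgfrb and no fibroblast marker. No fibroblast cluster had enough cells at both ages. The 2 compared at 1 week, led by Mfap4 and by H19, had heat shock sums of 1.61 to 4.42 and immediate early sums of 129 to 164, so each adult cluster lay above them in the former and below them in the latter.

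**Figure D3:**
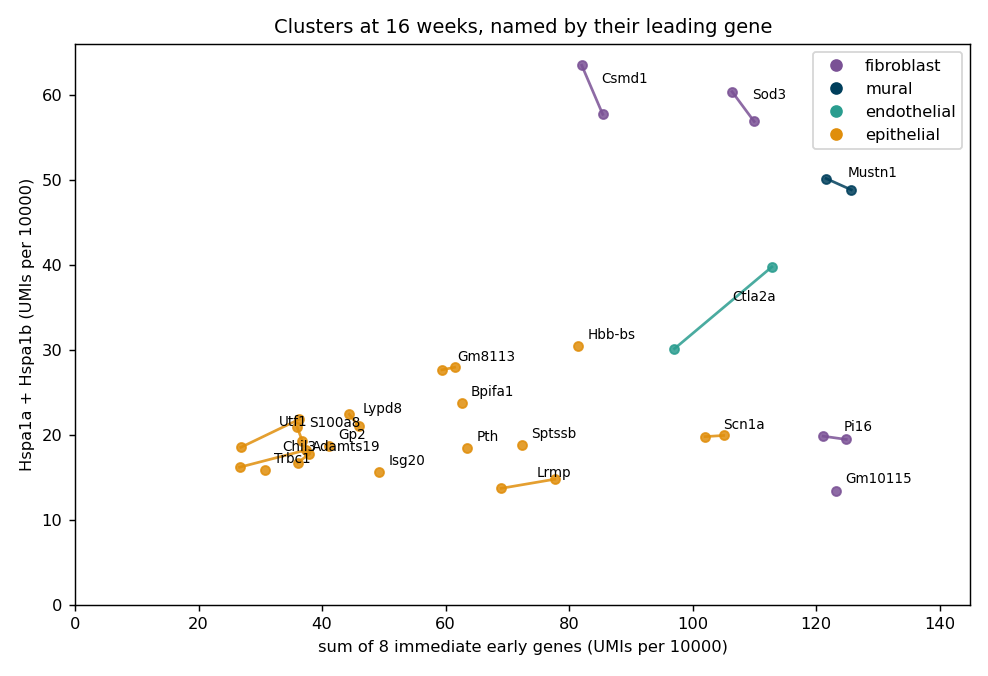
Clusters at 16 weeks, each named by its leading gene: the sum of 8 immediate early genes (horizontal) against Hspa1a + Hspa1b (vertical), both in UMIs per 10000, with a point per well and a line joining the wells of a cluster; the shallow epithelial cells are not drawn. The Pi16-led fibroblasts lie far right at 19.9 and 19.5 on the vertical axis, well below the Sod3-led fibroblasts at 60.4 and 56.9.

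In single cells the 2 groups were spread differently. Each cell was thinned to 2000 UMIs, the depth of the shallowest cell, so that no cell was lost. A fibroblast at 1 week held a median of 22.5 and 23 UMIs of the 8 genes in the wells and at 16 weeks 16 and 18. An intertypical cell went from a median of 14 and 13 to 6 and 6, while the 90th percentile was 28 and 29 at 1 week and 27 and 30 at 16 weeks, and 4.81% and 3.97% of the 16-week cells held none. For the heat shock pair the share of cells without a UMI was 71.6% and 72.0% in 1-week fibroblasts and 10.2% and 5.56% in 16-week fibroblasts, and 61.4% and 64.4% against 15.2% and 15.7% in cTEC. For Hspa1a alone 20.1% and 17.5% of thinned 1-week fibroblasts held a UMI, against 79.2% and 83.9% at 16 weeks; before thinning the shares were 63.2% and 57.1%, and 94.1% and 94.9%, at median depths of 21436.5, 17047, 12265.5 and 10898 UMIs.

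At 16 weeks cells with more immediate early UMIs also tended to hold more of the heat shock pair. Spearman's rho over thinned cells was 0.69 and 0.67 in intertypical TEC, 0.54 and 0.45 in fibroblasts and 0.43 and 0.39 in cTEC, against 0.11 and 0.21, -0.0035 and 0.028, and 0.092 and 0.088 at 1 week. In endothelial cells it was 0.18 and 0.046 at 16 weeks. The cells of a class were pooled over clusters that differ in level, and rho within a cluster is not given. At 1 week 50.8% and 45.9% of intertypical TEC held no heat shock UMI. The shares were 71.6% and 72.0% in fibroblasts and 61.4% and 64.4% in cTEC. The part of these empty cells in the lower rho was not tested, and cells of a library are not replicates. In 1-week fibroblasts the immediate early count moved with the mitochondrial share of the cell at a rho of -0.54 and -0.34, and in 16-week fibroblasts of -0.23 and -0.21. The sign was not the same in every class: at 16 weeks rho was 0.17 and 0.15 in intertypical TEC, 0.31 and 0.22 in proliferating TEC, and 0.53 and -0.031 in cTEC. With the depth of the cell before thinning, rho was 0.42 and 0.29 in 1-week and 0.064 and 0.084 in 16-week fibroblasts. In cTEC it was 0.27 and 0.19 at 1 week and -0.57 and -0.058 at 16 weeks. The part of the mitochondrial share or of depth in the levels was not tested.

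Other stress genes were counted by group, from 62 genes in the files that the rule for members did not use. Their lists were drawn up with earlier results of these data known, so the counts are not an independent test. Among 16 heat shock genes besides the pair, 3 to 4 were called higher at 16 weeks in each class except intertypical TEC (1, where 10.9% of all genes were called higher), against 5.04% of all genes in endothelial cells to 10.7% in proliferating TEC, and none was called lower except in proliferating TEC (1). Hspb1, a small heat shock protein, was called higher in all 7 classes, for example 0.32 and 0.66 per 10000 against 4.98 and 6.87 in fibroblasts and 1.54 and 2.21 against 30.4 and 22.3 in mural cells. Hsph1, a nucleotide exchange factor of HSP70, was called in 6, for example 0.522 and 0.459 against 1.30 and 1.47 in fibroblasts, and in intertypical TEC was 0.578 and 0.585 against 0.558 and 0.613. Dnajb1, the HSP70 cochaperone, was called in endothelial, mature mTEC and mural cells. Hspa8, the constitutive relative of the pair, was not called in any class and stood at 13.4 and 14.2 against 10.6 and 10.9 in fibroblasts. The medians of the heat shock group ranged from -0.02 to 0.46 on the log2 scale.

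Of the other immediate early transcription factors, 4 of 14 were called lower in cTEC (7.19% of all genes) and in fibroblasts (7.5%), 6 of 13 in intertypical TEC (5.86%), 4 of 14 in mural cells (11.2%), 3 of 14 in proliferating TEC (12.9%), 1 of 13 in endothelial cells (5.58%) and 1 of 14 in mature mTEC (2.88%). The endothelial count was near the share of all genes. In mural cells 1 was called higher. Egr2, a close relative of Egr1, was lower in 5 classes, for example 0.67 and 0.82 per 10000 against 0.15 and 0.18 in fibroblasts. Of the feedback and effector genes 5 of 19 were called lower in fibroblasts, 4 of 19 in intertypical TEC, 4 of 18 in mural cells, 8 of 19 in proliferating TEC and at most 1 in the other classes, against the same shares of all genes, and 0 to 2 per class were called higher. Among them Zfp36, which destabilises AP-1 transcripts, was 4.99 and 5.09 against 1.36 and 1.62 in intertypical TEC and 5.98 and 6.85 against 10.4 and 8.50 in endothelial cells, the latter not called. Of 10 to 12 genes of the unfolded protein response of the endoplasmic reticulum, 2 of 11 were called higher in endothelial cells (5.04% of all genes). In fibroblasts 1 of 11 was called higher (8.75%) and in mature mTEC 1 of 12 (8.25%). None was called in the other classes, and none was lower. Hspa5, the chaperone of this response, was 11.3 and 11.7 against 7.0 and 6.60 in fibroblasts, which was not a call.

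A test was possible between cells gated by surface tags, because the gates use no RNA. The lists of other stress genes were drawn up with earlier results of these data known, which their p-values do not allow for. Counts were summed by age pool and gate and compared with edgeR's quasi-likelihood test, with the pool as a block, over 19125 genes. The p-values rest on 2 pools, which are the 2 ages. Their spread is the change of a gate difference between the ages and not a difference between animals. EpCAM1-negative CD31-negative cells were 43.3% fibroblasts and 31.4% mural cells at 1 week and 61.6% fibroblasts at 16 weeks, when 14.2% were intertypical TEC, 9.98% Scn1a- and Fmod-led TEC, 3.51% mature mTEC and 2.77% shallow epithelial cells. CD31-positive cells were 76.3% and 80.7% endothelial, with 14.1% thymocyte-gene-led cells at 1 week and 10.0% fibroblasts at 16 weeks. EpCAM1-positive cells with high binding of the lectin UEA1, a mark of the medulla, were 35.8% intertypical TEC, 33.9% cTEC and 15.9% mature mTEC at 1 week, and 45.5% intertypical TEC, 31.3% mature mTEC and 0.290% cTEC at 16 weeks. The UEA1-low cells were 72.1% cTEC at 1 week but 41.2% Scn1a- and Fmod-led TEC at 16 weeks. The median mitochondrial share of UMIs also differed between the gates: over the 4 wells it was 8.17% to 10.3% in UEA1-high, 2.17% to 2.77% in EpCAM1-negative CD31-negative, 2.79% to 5.56% in CD31-positive and 2.38% to 4.17% in UEA1-low cells, and its part in the contrasts was not tested.

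In these gates the 8 immediate early members summed to 133 and 130 per 10000 at 1 week and 95.2 and 97.9 at 16 weeks in the EpCAM1-negative CD31-negative cells, to 78.8 and 80.1 and then 111 and 91.9 in the CD31-positive cells, and to 81.1 and 80.0 and then 46.8 and 50.9 in the UEA1-high cells. The heat shock sum went from 3.2 and 4.4 to 42.8 and 41.9, from 2.4 and 1.1 to 36.3 and 31.3, and from 3.3 and 4.1 to 21.5 and 22.4 in the same gates. These are the same cells as in the classes, and the make-up of the gates changed with age, so the values are a description of the gates and not a second measurement.

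Of the 62 other stress genes, 11 were higher and 2 lower in EpCAM1-negative CD31-negative than in UEA1-high cells, against 11% of all genes higher and 12.5% lower. Transcription factors gave 6 of 15, all higher, heat shock genes 2 higher and 1 lower of 16, feedback genes 3 higher and 1 lower of 19, and the unfolded protein response 0 of 12. Cebpd, an acute phase factor, was higher by 2.75 on the log2 scale with an SE of 0.21 (edgeR, adjusted p = 0.000903), from 0.717 and 0.996 in UEA1-high cells of the 1- and 16-week pools to 5.45 and 5.22 per 10000. Klf2 (1.69, adjusted p = 0.0038), Klf4 (1.66, adjusted p = 0.0366), the small heat shock gene Cryab (1.62, adjusted p = 0.0435) and Cebpb (1.53, adjusted p = 0.0061) followed in edgeR. Hspa4l, an HSP70 relative, was lower (-1.14, edgeR adjusted p = 0.0119), as was the kinase Sik1 (-0.56, edgeR adjusted p = 0.0371). Without the pool as a block the counts were 2 higher and 0 lower, with tags scaled to the cell's tag total 4 and 0, and with each library summed apart 25 and 7, and the lower count was 1 without 1-week well 1 or without 16-week well 1.

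Between CD31-positive and UEA1-high cells 13 of the 62 were higher and 6 lower, against 10.6% and 11.3% of all genes. Feedback genes gave 8 of 19 and transcription factors 5 of 15, all higher, while 4 of 16 heat shock genes and 2 of 12 unfolded protein response genes were lower. The highest were Sgk1, a kinase induced by serum (3.03, edgeR adjusted p = 0.0057), the Nr4a1 relative Nr4a2 (2.89, edgeR adjusted p = 0.0021), Fosl2 of the Fos family (2.43, edgeR adjusted p = 0.0081), Klf2, which blood flow induces (1.96, edgeR adjusted p = 0.0021), and Cebpd (1.95, edgeR adjusted p = 0.0012). The lowest were Hspa4l (-1.17, edgeR adjusted p = 0.0155), the mitochondrial chaperones Hspe1 (-0.97, edgeR adjusted p = 0.0156) and Hspd1 (-0.62, edgeR adjusted p = 0.0404), and the endoplasmic reticulum genes Creld2 (-0.74, edgeR adjusted p = 0.0332) and Hsp90b1 (-0.70, edgeR adjusted p = 0.0272). Without the pool as a block the counts were 5 and 0, with tags scaled to the tag total 2 and 0, and with each library summed apart 23 and 14, and without 1-week well 1 the lower count was 2. Between UEA1-low and UEA1-high cells edgeR called none of the 62 (0.272% of all genes higher, 3.88% lower), 11 had an unadjusted p under 0.05 beside 4558 of 19125 genes in all, and DESeq2 called 1 higher and 3 lower, beside 202 and 1459 of 20328 genes.

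Genes outside the list whose log2 level ran most like the members' were sought among 15603 genes over the 41 units of class and library. For the immediate early group they were Socs3 (Pearson r 0.94), Zfp36 (0.92), Ier2 (0.87), Btg2 (0.84), Nynrin (0.82), Pnrc1 (0.82), Tnfrsf1a (0.82), Dusp6 (0.80), Parva (0.80) and Spred1 (0.79). Among them, Socs3, Zfp36, Ier2, Btg2 and Dusp6, were on the list of other stress genes. For the heat shock pair they were Gm8696 (0.87), Cbx7 (0.79), Arntl (0.78), Gm47586 (0.77), Gm16867 (0.76), Gm47283 (0.76), Cpxm2 (0.75), Hsph1 (0.74), Eif4a2 (0.74) and Gsn (0.73). Gm8696 is annotated as a processed pseudogene on the chromosome of the pair, and whether it shares reads with them was not tested. Units of a library share its depth and preparation, and the pair's values differ mainly between the ages, so these r are descriptions of likeness and carry no p.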

How the data were processed

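Single-cell mRNA and antibody tag libraries of 4 wells were used, 2 from the 1-week and 2 from the 16-week pool. Per the methods, the authors aligned reads to mm10 with STARsolo 2.7.9a on Ensembl annotation, dropped cells under 2000 UMIs, and deposited raw whole-number counts per gene and per tag. The labels and the methods name different versions of the 3′ reagent kit, which does not change the unit. A list of tag sequences was not used. Names and coordinates came from GENCODE M21 (GRCm38), which matched 55141 of 55487 identifiers, and promoters from RefSeq.

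The members and lists were chosen with earlier results of these data known. All 10 members are described. Of 62 other stress genes the text names, per gate contrast, up to 5 of the largest differences in each direction at an adjusted p under 0.05; genes named in the age comparison were chosen after their values were seen. Likeness names the 10 genes with the highest r among genes with at least 200 UMIs, on log2 of the level plus 0.1, over units with at least 20 cells.

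Scrublet (scanpy 1.11.5) marked 14 cells by its own limit, which is too low a number to trust. The cells with the top scores were removed in its place, 2.54% of all, at a rate that grew with the size of the library. Cells were clustered on 30 principal components of 2000 variable genes with 10 neighbours, and clusters were named where at least 3 markers were found. Where all libraries of an age come from 1 pool no test of age was made. A gene was tested for a call between ages if it had at least 50 UMIs in the class, and called at a 2-fold difference of means with no overlap of wells. Both rules were tested on simulated data. Tag gates were limits between 2 normal components of the centred log ratio of EpCAM1 (2.01), CD31 (0.857) and UEA1 (4.98), a scaling chosen after the tag values were seen. Sums per pool and gate were fitted with edgeR 4.0.16 (TMM, pool as block) in R 4.3.3, with DESeq2 1.42.0 as an alternative, and p-values were adjusted over all genes by Benjamini-Hochberg. In simulated counts for the first contrast, 99.5% of 4-fold changes over 18773 genes were recovered. The simulation had a single spread for all genes, no change of a gate difference between the ages, and changed genes with high expected counts only. Smaller differences were not simulated, so the figure does not cover the smaller calls. Other alternatives were the clustering genes, doublets, shallow clusters, neighbours, weighting of cells, thinning, low-count filter, block and each library left out. Same-numbered wells of different ages share only a number.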

Additional observations from a re-analysis of the deposited data

Results flagged for a closer look

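Several immediate early genes were higher at 16 weeks in a class while other classes were lower, with every well of an age on the same side of every well of the other. In endothelial cells these were Jun (log2 difference 1.08), Atf3 (0.643), Junb (0.376), Egr1 (0.361) and Ier3 (0.326). In mature mTEC they were Jun (0.660), Fosb (0.504), Egr1 (0.412) and Fos (0.388). For each of these genes at least 3 of the 7 classes had lower 16-week wells without overlap. Of all genes tested, 23.8% in endothelial cells and 26.5% in mature mTEC were higher without overlap. The difference between the classes was not tested, since each age is 1 pool. The Jun difference in endothelial cells was just under 2-fold when doublets were kept.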

How the results depend on the processing

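The signs of the age differences of both sums held in the 7 classes under the alternatives run, but sizes moved. The cTEC immediate early difference of -0.48 came to -0.0098 as a mean over cells and -0.043 after thinning, in both of which the wells of the ages overlapped and no direction could be given. In the same order fibroblasts came to -0.23 and -0.24 and proliferating TEC, at -1.31, to -0.92 and -0.91. Intertypical TEC gave -0.95, and -1.13 with stress genes kept for clustering, -0.72 with doublets kept, -1.13 with shallow clusters kept, -1.12 with 20 neighbours, -0.51 as a mean over cells and -0.50 thinned. Mature mTEC gave 0.19, and 0.25 with 20 neighbours, 0.10 as a mean over cells and 0.083 thinned. For the heat shock pair cTEC came to 2.83 and 2.92 by the mean and by thinning. Intertypical TEC came to 0.74 with stress genes kept, 1.38 with doublets, 1.27 with shallow clusters, 1.53 with 20 neighbours, 2.39 as a mean and 2.47 thinned, and mature mTEC in the same order to 2.40, 2.33, 2.24, 2.26, 2.32 and 2.25. Mean over cells moved fibroblasts over mature mTEC to 1.69 (immediate early, 1 week) and 1.22 (heat shock pair, 16 weeks). Of the counts of members called by class and direction, 13 moved by over 1.5 times under an alternative and 73 did not. Leaving out the Csmd1-led cluster was chosen after the data were seen. The causes were not tested.

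Counts of other stress genes between gates depended on the fit. Higher in EpCAM1-negative CD31-negative cells were 11, but 25 with no low-count filter, 25 with each library summed apart and taken as replicate block, 2 with no replicate block and 4 with tags scaled to the cell's tag total, and lower were 2, but 7, 0 and 0 with library sums, no block and tag totals. For CD31-positive cells the 13 higher became 22, 23, 5 and 2 in the order of the first list, and the 6 lower became 14, 0 and 0. For UEA1-low cells 0 higher became 1 with DESeq2, 4 with no filter, 6 with library sums and 3 with tag totals, and 0 lower became 3, 4 and 11 with DESeq2, no filter and library sums. Leaving out a library gave 1 to 3 lower genes for EpCAM1-negative CD31-negative cells, 2 to 7 for CD31-positive cells and 0 to 1 for UEA1-low cells, the single call without 1-week well 2. Library sums treat wells of a pool as replicates, and the tag totals were added after the data were seen. Across ages the well numbers share only a number, so no pairing was fitted for the age differences. Depth limits members at low levels, such as Nr4a1 at 0.0815 and 0.0992 per 10000 in 16-week proliferating TEC.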
